A study of Mus musculus with 7 samples.

Results

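Promoter Lone CTCF peaks are sites in mouse liver where CTCF was found close to a transcript start and cohesin was not. They were chosen by measured values. A peak of the autosomal CTCF list was a member where it shared no base with any peak of the Rad21 list and its summit lay within 1 kb of a transcript start of the mm9 GENCODE annotation. There were 2492 such peaks among 67010 autosomal CTCF peaks. The lists came from ChIP-seq of liver from 8-week-old female mice of the outbred strain Crl:CD1(ICR), with 4 CTCF libraries and 3 Rad21 libraries. All libraries came from females of that strain, so no genotype, treatment or sex was compared here. Each list was called on libraries pooled per antibody, so no peak has a replicate, and every interval below is a 95% interval that covers counting error only. Neighbouring peaks are not independent, and the lists give no read counts, so the depth behind a peak is unknown.

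CTCF is a zinc finger protein that binds a long, non-palindromic DNA motif and stops loop extrusion by cohesin, a ring complex of which Rad21 is a subunit. Most CTCF sites in the genome carry cohesin and can anchor loops, while CTCF is also known at promoters, where the nearby CpG islands stay free of DNA methylation. Methylation of a CpG inside the motif can block CTCF binding. Peaks with both factors are called CAC (cohesin-and-CTCF) here, and CTCF peaks without a Rad21 peak are called Lone CTCF. The names are the study's, but for its sex-differential peaks it counted in how many single Rad21 libraries a cohesin peak was found, while overlap with 1 pooled list was used here. Whether a Lone CTCF peak lacks cohesin or held too little of it for a Rad21 call cannot be told apart in peak lists, and in bulk liver a site bound in few cells cannot be told apart from one bound weakly in many.

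The sequences of the strongest members with a motif show what the matrix used here recognises. Each is the best match within 100 bp of the summit, written on the strand that fits the motif, with the core of the motif, positions 6 to 17 of 20, in capitals. The first line is the consensus learned from the strongest CTCF peaks. The next 6 are all motif matches among the 15 members of highest fold enrichment at protein-coding transcript starts.
Consensus: ctggcGCCCCCTGGTGGcca
Elavl4, chr4:110024551-110024570, minus strand: caagcGCCCCCTAGAGGcgg
Vps8, chr16:21470683-21470702, plus strand: ccagtGCCCTCTTCTGGcca
Pfdn4, chr2:170336642-170336661, plus strand: agcgcTCCCCCTGCTGGccg
Ttyh1, chr7:4071032-4071051, minus strand: gctccGCCCTCTCCTGGgct
Il3ra, chr14:15178069-15178088, minus strand: ttggtGCCCCCTGCAGGacg
Kcnj11, chr7:53356169-53356188, minus strand: ctggcGCCCTCTGGCGGcgg

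The members without such a match were the more common kind. The bases around 4 strong summits, in windows free of annotated exons and read on the plus strand of mm9, set both kinds side by side. In the first pair the capitals mark the CTCF motif, and in the other pair, whose best matches stayed below the 1% score but passed a 5% score, they mark CpG dinucleotides.
Vps8, chr16:21470646-21470766: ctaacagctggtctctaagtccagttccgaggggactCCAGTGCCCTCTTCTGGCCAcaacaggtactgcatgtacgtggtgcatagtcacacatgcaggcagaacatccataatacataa
Kcnj11, chr7:53356089-53356209: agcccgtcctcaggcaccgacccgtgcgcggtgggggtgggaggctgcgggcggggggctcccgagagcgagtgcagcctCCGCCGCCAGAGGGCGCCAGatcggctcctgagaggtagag
Pabpc4, chr4:122959843-122959963: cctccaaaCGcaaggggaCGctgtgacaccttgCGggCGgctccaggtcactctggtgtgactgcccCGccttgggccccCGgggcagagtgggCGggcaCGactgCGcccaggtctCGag
Pde11a, chr2:76054357-76054477: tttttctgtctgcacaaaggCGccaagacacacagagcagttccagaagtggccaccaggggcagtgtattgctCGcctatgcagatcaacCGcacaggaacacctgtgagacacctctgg

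Lone CTCF peaks lay at promoters less often than CAC peaks did. Of 17543 autosomal Lone CTCF peaks 14.2% (13.7 to 14.7%) were promoter peaks, against 27.2% (26.9 to 27.6%) of 49467 CAC peaks. Seen from the promoter side, 15.6% of 15970 promoter CTCF peaks lacked an overlapping Rad21 peak. By chromosome that share ran from 11.4% on chromosome 16 to 19.1% on chromosome 7. These shares follow from the rule and are a description.

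Members were weak CTCF peaks. Their median fold enrichment over the local background was 3.57 (3.51 to 3.59), with a middle range between quartiles of 2.99 to 4.54. The medians were 5.82 (5.74 to 5.91) for 13478 promoter CAC peaks and 3.99 (3.90 to 3.99) for 8514 distal Lone CTCF peaks, which lay over 10 kb from any start. Only 51 members (2.05%) reached a fold enrichment of 10, against 25.9% of promoter CAC peaks. Members were also narrow, with a median width of 284 bp, close to the 270 bp of distal Lone CTCF peaks and below the 523 bp of promoter CAC peaks. The part of peak strength in the missing Rad21 overlap was not tested.

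Members were spread more broadly around the start than promoter CAC peaks. The median distance from summit to nearest start was 282 bp (263 to 305 bp), against 160 bp (157 to 163 bp) for promoter CAC peaks. Of the members, 40.4% (38.5 to 42.4%) lay within 200 bp and 32.8% over 500 bp away, against 58.4% and 16.8% of promoter CAC peaks. Summits upstream of the start made up 47.9% (46.0 to 49.9%) of members and 42.3% (41.5 to 43.1%) of promoter CAC peaks. By annotation, 41.5% of member summits fell in introns, 25.2% between genes, 14.1% in UTRs, 11.4% in coding exons and 7.78% in exons of noncoding transcripts.

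**Figure D1:**
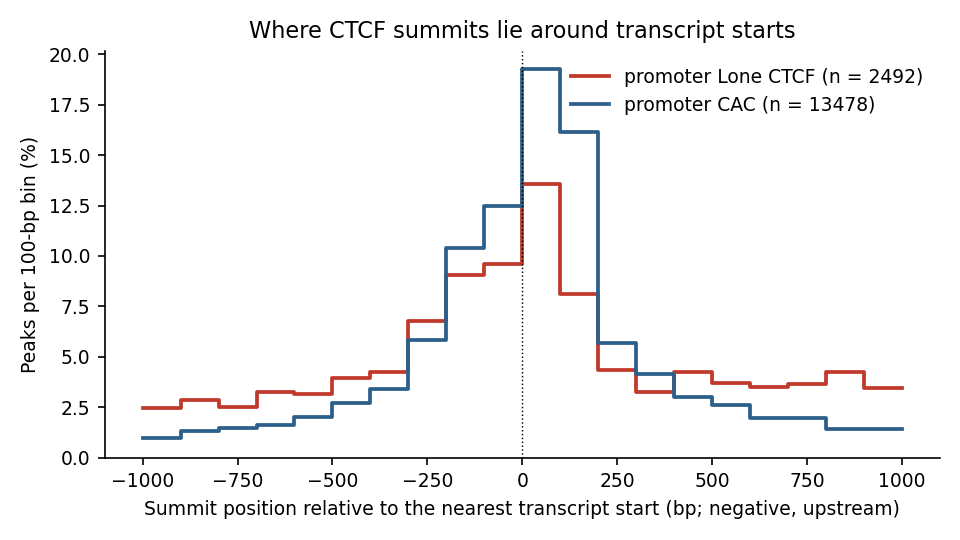
Share of peaks (%) in 100-bp bins of summit position relative to the nearest transcript start, for promoter Lone CTCF (red) and promoter CAC peaks (blue). Both peak just after the start, and the red line stays above the blue one beyond 500 bp on either side.

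A CTCF motif was found in few members. It was called in 469 of 2492 (18.8%, 17.3 to 20.4%), at a score reached by 1% of windows beside the peaks. Windows of the same width at protein-coding starts with no CTCF peak held one in 0.805% of 21864 cases. A further 42 of the 2023 members without a motif near the summit had one elsewhere in the peak. Distal Lone CTCF peaks carried a motif in 42.8% (41.8 to 43.9%), and the difference of members from them was −24.0 percentage points (−25.8 to −22.1). Promoter CAC peaks carried one in 17.5% (16.8 to 18.1%), and the difference of 1.37 points had an interval of −0.253 to 3.07 that held 0. By distance of the summit from the start, members differed from promoter CAC peaks by −2.08 points (−4.75 to 1.03) under 100 bp, 0.601 points (−2.37 to 4.18) at 100 to 199 bp, 0.982 points (−2.02 to 4.29) at 200 to 499 bp and −5.74 points (−9.30 to −2.04) at 500 to 1000 bp. The difference of 1.37 points over all distances turned with the definition of cohesin overlap. It became −6.87 points (−8.03 to −5.67) when only Rad21 peaks with a −log10 q of at least 10 counted, and 7.04 points (4.82 to 9.39) when members had to lie at least 1 kb from any Rad21 peak.

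At like CTCF strength the members stood between the 2 other classes. For fold enrichments of 3 to 4, a motif was present in 15.3% of members, 3.22% of promoter CAC peaks and 32.0% of distal Lone CTCF peaks. For 4 to 6 the share was 28.2% of members and 5.56% of promoter CAC peaks, and members differed from distal Lone CTCF peaks by −26.8 points (−30.7 to −22.6). For 6 to 10 the shares were 37.4%, 12.9% and 64.4%. Members exceeded promoter CAC peaks by 5.20 points (3.20 to 7.57) under a fold enrichment of 3 and by 24.5 points (17.9 to 31.5) between 6 and 10. At 10 and over, 49.0% of 51 members and 47.9% of promoter CAC peaks had a motif, a difference of 1.17 points (−12.1 to 14.6). The sign of that difference turned under 5 alternatives in processing and was kept under 3. Members stayed below distal Lone CTCF peaks in all 5 bands, with intervals that excluded 0.

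**Figure D2:**
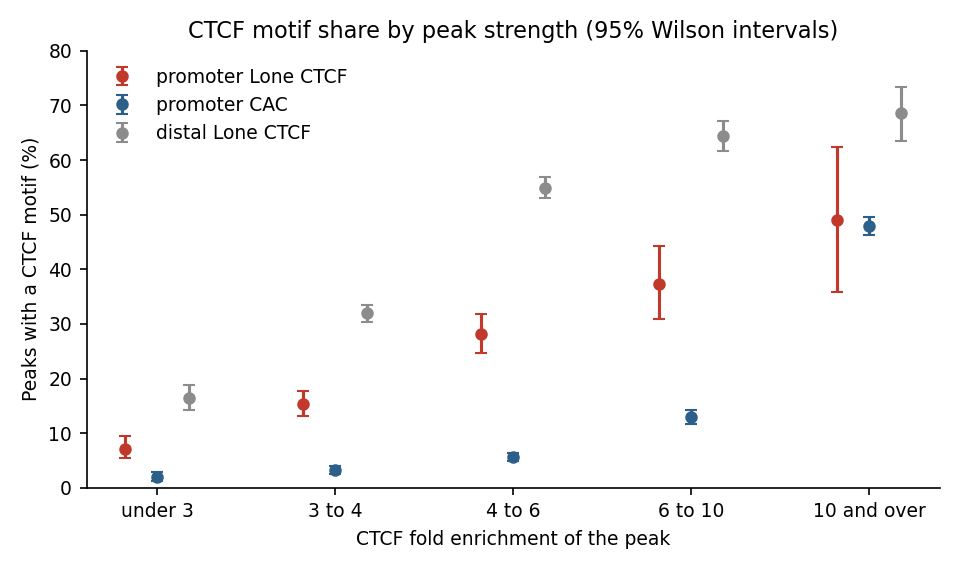
Share of peaks with a CTCF motif (%) in 5 bands of CTCF fold enrichment, for promoter Lone CTCF (red), promoter CAC (blue) and distal Lone CTCF peaks (grey), with 95% Wilson intervals. Red points lie between blue and grey points below a fold enrichment of 10, and in the last band the red interval spans the blue point.

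Members also held less CpG-rich sequence than promoter CAC peaks. In the 250 bp on either side of the summit, 20.3% (18.8 to 21.9%) of members were CpG-rich, meaning a GC content of at least 55% and an observed over expected CpG ratio of at least 0.75. The share was 46.3% (45.4 to 47.1%) for promoter CAC peaks and 0.329% for distal Lone CTCF peaks. CpG-poor sequence, with a ratio under 0.4, made up 45.9% of members, 18.3% of promoter CAC and 93.1% of distal Lone CTCF peaks. The motif share of members was 5.73% in CpG-rich, 9.04% in intermediate and 31.8% in CpG-poor sequence. Promoter CAC peaks of the same sequence classes had higher shares, and the differences of members from them were −3.09 points (−4.95 to −0.618), −7.45 points (−9.51 to −5.09) and −9.303 points (−12.6 to −5.94). The differences from distal Lone CTCF peaks were −1.41 points (−17.0 to 4.27) in CpG-rich sequence, which held 28 distal peaks, −24.4 points (−28.8 to −20.1) in intermediate and −11.8 points (−14.7 to −8.85) in CpG-poor sequence. Among CpG-rich peaks under a fold enrichment of 6 that difference was 5.08 points (−8.34 to 7.45). In that set 0 of 25 distal peaks had a motif. Against promoter CAC peaks, the order turned under a fold enrichment of 6. Members then exceeded promoter CAC peaks by 3.14 points (1.41 to 5.54) in CpG-rich sequence and by 15.7 points (12.3 to 19.1) in CpG-poor sequence.

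**Figure D3:**
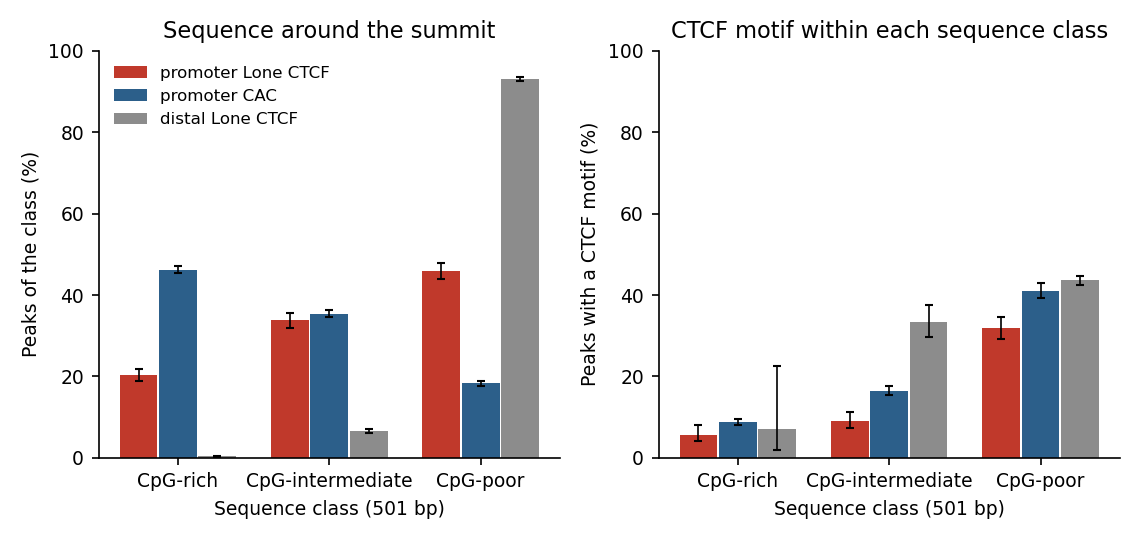
Left, share of each class of peaks (%) in CpG-rich, intermediate and CpG-poor sequence around the summit. Right, share of peaks with a CTCF motif (%) within each sequence class. Bars carry 95% Wilson intervals. Members (red) are 45.9% CpG-poor, and their motif share rises from 5.73% in CpG-rich to 31.8% in CpG-poor sequence.

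The members with and without a motif differed in more than sequence. The 469 with a motif had a median fold enrichment of 4.40 (4.12 to 4.54), against 3.44 (3.37 to 3.47) for the 2023 without. A start of a protein-coding transcript lay within 1 kb in 47.3% (42.9 to 51.9%) of those with a motif and in 79.8% (78.0 to 81.5%) of those without. Their median distances from the nearest start were 487 bp and 251 bp. CpG-poor sequence surrounded 77.6% of the first set and 38.6% of the second. Of the 222 motifs near a protein-coding start, 99 (44.6%, 38.2 to 51.2%) lay on the strand of the gene. A CpG was present inside 44.8% (40.3 to 49.3%) of the motif matches of members, 66.7% (64.8 to 68.6%) of those of promoter CAC peaks and 38.9% of those of distal Lone CTCF peaks.

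The distance to cohesin varied widely. The median gap between a member and the nearest Rad21 peak was 2185 bp. The gap was under 100 bp for 182 members (7.30%) and at least 10 kb for 517 (20.7%). A motif was present in 4.40% (2.24 to 8.43%) of the first group and in 26.5% (22.9 to 30.5%) of the second. A CAC peak lay within 1 kb of the same start as the member in 29.0% of cases and a Rad21 peak of any kind in 36.1%, while 63.6% had neither. At the overlap limit, 16 members lay under 10 bp from a Rad21 peak and 14 promoter CAC peaks shared under 10 bp with one. The member nearest to a Rad21 peak, at Parvb, abutted it with no base between them and had a fold enrichment of 2.89. The CAC peak at Mtbp shared 1 bp and had a fold enrichment of 4.58. At the distance limit, the summit at Mtf2 lay 1000 bp from its start with a fold enrichment of 3.71, and that at Nup188 lay 1002 bp away with 3.17.

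The strongest members at protein-coding starts were at genes of varied roles. Pabpc4, which encodes a cytoplasmic poly(A)-binding protein, had the strongest one at a protein-coding start, with a fold enrichment of 24.0 (chr4:122959713-122960054, summit 165 bp upstream). Duoxa1, a maturation factor of dual oxidase, followed with 20.2. Elavl4, a neuronal RNA-binding protein, and Vps8, a subunit of the CORVET vesicle tether, each reached 18.7. Hist1h3e, a gene for histone H3, had a peak of 18.3 at 920 bp upstream, and the phosphodiesterase gene Pde11a one of 18.2 at 966 bp upstream. Of the 15 strongest, 6 had a motif and 9 had none anywhere in the peak at the 1% score. At the lower score that 5% of windows beside the peaks reached, 4 of the 9 passed, at Mll1 (12.5 bits), Pabpc4 (11.7 bits), Fam196b (11.2 bits) and Pde11a (6.97 bits). Pabpc4, Duoxa1, Hist1h3e, Pde11a and Got1l1 were the strongest without one. Only the peak at Mll1, a histone H3 lysine methyltransferase, had a Rad21 peak within 1 kb, at 87 bp, and the gap at Elavl4 was 142219 bp.

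Strong members at protein-coding starts in CpG-rich and CpG-poor sequence can be set side by side. In CpG-rich sequence the strongest were at Elavl4 (18.7), Mll1 (14.8), Mlf1 (12.7), Cdk5r1 (11.3), which encodes the p35 activator of Cdk5, and 1110065P20Rik (10.03). In CpG-poor sequence they included those at Vps8 (18.7), Pde11a (18.2), Fam196b (12.6) and Trp53rk (10.3). A motif was called at Elavl4 in the first set and at Vps8 and Trp53rk in the second. High motif scores did not need a strong peak. Sycp2, a gene of the synaptonemal complex, scored 25.2 bits with a fold enrichment of 5.50, and Gm5566 scored 24.5 bits with 3.57.
Sycp2, chr2:178142445-178142464, minus strand: acagcGCCCCCTGCTGGcag
Ift122, chr6:115804646-115804665, plus strand: ctggtGCCCTCTTCTGGcca
Pdzd7, chr19:45104731-45104750, minus strand: ggtgcGCCCCCTGCTGGcca
Gm5566, chr5:150464193-150464212, plus strand: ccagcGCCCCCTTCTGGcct

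Copies of a small nucleolar RNA annotation were singled out after their values were seen. Of all 34653 annotated autosomal genes, 7.36% had a member at a start. SNORA17, annotated in 578 autosomal copies, had one at 37 of them (6.401%). It was the nearest start of 39 members, and 28 of their summits lay 0 to 150 bp after it. Their fold enrichments ran from 2.68 to 28.7 with a median of 4.81, and the highest was the strongest of all members. A motif was called in 13 of the 39. In 11 of the 13 it began 30 to 50 bp after the annotated start, and in the other 2 it lay elsewhere. Letters and strand were tabulated for 10 of these 11, which began at 35 to 47 bp, all lay on the strand opposite to the gene, and in 9 cases held CTGCCACCT. Promoter CAC peaks lay there too, 70 of them with a motif in 34.3% (24.2 to 46.0%), against 33.3% (20.6 to 49.0%) of the 39 members. U6 copies, nearest to 19 members, had 9 motifs at no fixed place. The copies resemble each other, and since the authors kept uniquely mapped reads only, reads that fit several copies are not in these values.
SNORA17, chr3:69766305-69766324, plus strand, fold enrichment 28.7: actctGCCACCTAGTGGcgg
SNORA17, chr13:56269005-56269024, minus strand, fold enrichment 15.7: tctctGCCACCTACTGGcac
SNORA17, chr8:98842455-98842474, plus strand, fold enrichment 9.07: tttctGCCACCTACTGAcca
SNORA17, chr10:29114889-29114908, minus strand, fold enrichment 7.15: cctctGCCACCTACTGAcaa

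Variable (V) genes of antigen receptors, which are joined by recombination in lymphocytes, formed another set noticed in the values. The annotation has 355 autosomal V genes of immunoglobulins and T-cell receptors, and 17 of these (4.79%, 3.01 to 7.53%) had a member, against 7.36% of all annotated genes. A V gene was the nearest start of 17 members. A motif was called in 16 of them (94.1%, 73.0 to 99.0%), each time on the strand opposite to the gene. All 17 lay in CpG-poor sequence, 8957 bp or more from the nearest Rad21 peak. On chromosome 12, which holds the heavy-chain locus, 7 motifs lay 487 to 596 bp after the start of the V gene. On chromosome 14, which holds the T-cell receptor alpha and delta locus, all 7 began 84 to 225 bp upstream. These distances are to the motif edge that comes first in the direction of the gene. The strongest peak was at Ighv12-3, with a fold enrichment of 13.1.
Ighv12-3, chr12:115604654-115604673, plus strand: acagcACCACCTGCTGGttg
Gm16700, chr12:115117230-115117249, plus strand: tcagcGCCCCCTGCTGGtcc
Gm16969, chr12:114816640-114816659, plus strand: tccgcGCCCCCTGCTGGtcc
Trav10, chr14:54125243-54125262, minus strand: ctactGCCATCTTGTGGcca
Trav3-3, chr14:54285511-54285530, minus strand: gctctGCCCCCTAGTGGaca

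**Figure D4:**
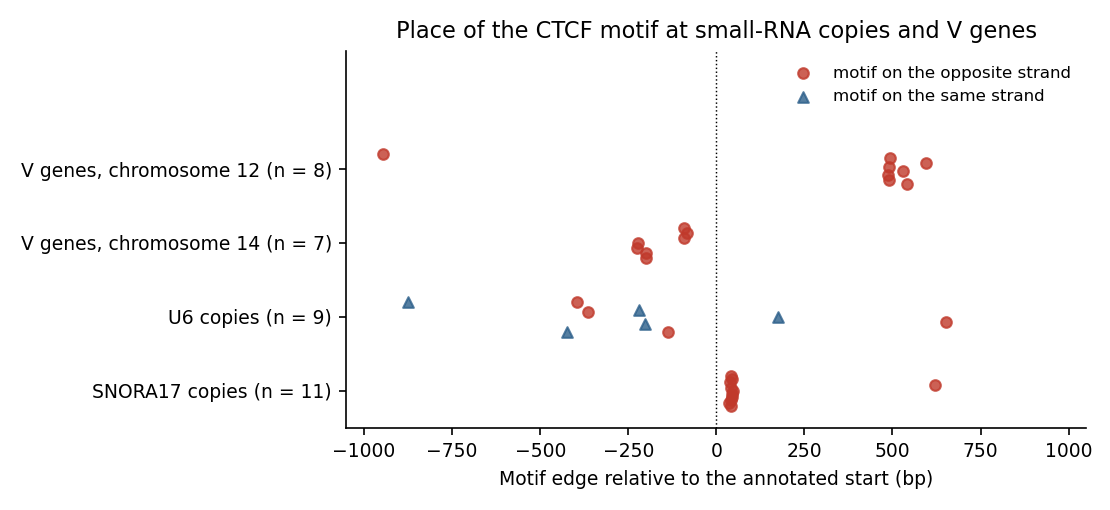
Position in bp, relative to the annotated start (negative, upstream), of the motif edge that comes first in the direction of the gene. Shown are members with a CTCF motif at SNORA17 copies, U6 copies and V genes of chromosomes 12 and 14. Each point is 1 motif, by strand relative to the gene, and 11 of the 13 SNORA17 motifs are drawn. Of these, 10 sit at 35 to 47 bp and 1 at 621 bp. The plot shows V gene motifs at 487 to 596 bp on chromosome 12 apart from 1. Those on chromosome 14 lie at 84 to 225 bp upstream, while U6 motifs are scattered.

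Motif content varied with the kind of gene next to the member. It was 16.3% (14.8 to 17.9%) of the 2134 members nearest to a start of a protein-coding gene, 47.0% (35.4 to 58.8%) of the 66 nearest to a pseudogene and 34.9% (24.3 to 47.2%) of the 63 nearest to a snoRNA. Long intergenic noncoding RNA genes had 51 members, of which 3.92% (1.08 to 13.2%) carried a motif.

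Among 21410 autosomal protein-coding genes, 1818 (8.49%, 8.13 to 8.87%) had a member within 1 kb of a start of a protein-coding transcript. A CAC peak lay there in 48.2%. Of the 1818, 920 (50.6%) had both. With starts of all transcript types counted, 2116 of 21418 protein-coding genes (9.88%) had a member. The counts that follow use starts of protein-coding transcripts. Genes with CpG-rich and intermediate promoters had a member in 11.4% and 11.5% of cases, and CpG-poor ones in 3.57%. There were 151 genes with 2 members and 6 with 3 or more. Setd1b, a histone methyltransferase gene, had 4 with fold enrichments of 2.76 to 3.39. Foxp2 (a forkhead transcription factor), Ptch1 (the Hedgehog receptor), Clip1 (a microtubule plus-end protein) and the divergent pair Fam96a and Snx1, which shared theirs, had 3. Near the summit, only 1 of these peaks, at Setd1b, carried a motif.

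Genes with a member were more often part of a head-to-head pair, with starts at most 1 kb apart. Such a partner was present for 9.73% of all autosomal protein-coding genes. It was present for 14.1% (12.6 to 15.8%) of genes with a member and for 9.33% (8.93 to 9.74%) of the others, a difference of 4.76 points (3.18 to 6.48). A peak between paired genes counts for both, and 144 members had starts of 2 or more protein-coding genes within 1 kb. Among CpG-rich promoters the difference was 0.119 points (−2.44 to 2.95), among intermediate ones 3.11 points (0.5004 to 6.07) and among CpG-poor ones 2.64 points (0.854 to 5.61). With members at least 1 kb from any Rad21 peak it was −0.0725 points (−1.87 to 2.06). Genes with a CAC peak and no member had a partner in 16.1% of cases, and genes with a member differed from them by −1.97 points (−3.67 to −0.144).

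Gene families are described here by their counts beside the 8.49% of all protein-coding genes. Histone genes stood highest, with a member at 23 of 67 (34.3%, 24.1 to 46.3%), against 7 of 67 with a CAC peak. The 23 genes shared 22 distinct peaks, 21 on chromosome 13, and none carried a motif. Hist1h3e (18.3), Hist1h2bb (8.60) and Hist1h2ae (6.72) had the highest fold enrichments. These genes are short, lie close together and resemble each other, so their peaks are not independent, and reads that fit several of them were left out by the authors.

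Clustered protocadherins, cell-surface proteins of neurons with a CTCF-bound promoter motif, had a member at 7 of 24 genes (29.2%, 14.9 to 49.2%). A CAC peak lay at a start of 8 of the 24 (33.3%). The members were led by Pcdhb3 (9.90), Pcdhgc5 (6.60) and Pcdha11 (6.18), and none of the 7 had a Rad21 peak within 1 kb. At the 1% score only the peak at Pcdha11 carried a motif. Those at Pcdhb7 (12.8 bits), Pcdhb15 (12.5 bits), Pcdhb16 (10.9 bits) and Pcdhb11 (8.06 bits) passed the 5% score. Hox genes, which pattern the body axis, had 2 of 40, at Hoxb7 (6.38) and Hoxd9 (4.21).

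Olfactory receptor genes had 2 of 1106 (0.181%), at Olfr658 and Olfr94. Vomeronasal receptors had 0 of 327, for which 3 counts would be 0.917% and the Wilson limit is 1.16%. Keratins had 0 of 51, with limits of 5.88% and 7.00% found in the same way. Zinc finger genes had 32 of 337 (9.50%), led by Zfp259 (6.61), Zfp819 (6.60) and Zfp536 (5.91).

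Lists of genes of general cell functions had shares whose intervals held the background. Cytosolic ribosomal proteins had 6 of 76 (7.89%), mitochondrial ribosomal proteins 6 of 75 (8.00%), translation initiation factors 6 of 55 (10.9%) and splicing factors 6 of 48 (12.5%). Proteasome subunits had 6 of 40 (15%, 7.06 to 29.1%), cyclins and Cdks 5 of 33 (15.2%, 6.65 to 30.9%), NADH dehydrogenase subunits 5 of 41 (12.2%) and aminoacyl-tRNA synthetases 4 of 35 (11.4%). Each of these 8 intervals held 8.49%. The strongest members among them were at Cdk18 (9.70), Lars2 (7.71), the mitochondrial leucyl-tRNA synthetase, and Mrpl20 (6.58).

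**Figure D5:**
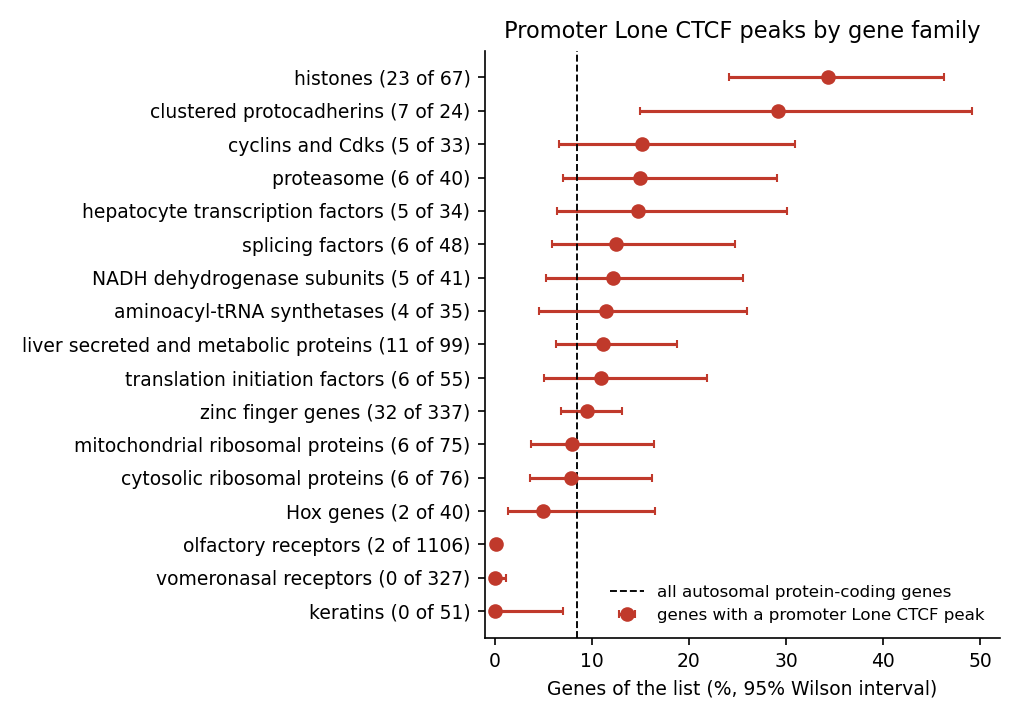
Share of genes (%) of each list with a promoter Lone CTCF peak, with 95% Wilson intervals and the counts beside each name. The dashed line marks the 8.49% of all autosomal protein-coding genes. Histones and clustered protocadherins lie wholly to its right, olfactory and vomeronasal receptors and keratins wholly to its left.

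Lists of genes that mark the hepatocyte had members at shares whose intervals held 8.49%. Of 34 hepatocyte transcription factors, 5 had one (14.7%, 6.45 to 30.1%), with 29 of 34 bearing a CAC peak. The peak at Hlf, a PAR-domain factor, had a fold enrichment of 6.27. Those at Nr5a2 (3.36), Hnf4a (2.92 and 2.86), Onecut1 (2.43) and Tef (2.35) were below the median member, and none of the 6 carried a motif. Of 99 genes for proteins made by liver, 11 had a member (11.1%, 6.32 to 18.8%). The 12 peaks all lay in CpG-poor sequence.

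Among these liver genes, Plg, which encodes plasminogen, had the strongest peak (5.40, at chr17:12570784-12571499, summit 156 bp upstream). It was followed by Apoh (4.26), C9 (3.56), a terminal complement component, Aldh1a1 (3.51) and the coagulation factor gene F11 (3.49). Apoe, which encodes the apolipoprotein of remnant particles, had 2 members, at 2.98 and 2.63. The weaker of them, 6 bp upstream of a start, was the only 1 of the 12 with a CTCF motif, at a score of 20.2 bits. The peaks at F12 (2.90), Hpx (2.67), Itih3 (2.67), Itih2 (2.59) and Lcat (2.35) carried none.

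Short motifs of other promoter factors were counted on both strands within 100 bp of the summit, beside the same windows at 43968 protein-coding starts. The ETS letters CCGGAAG were present in 3.45% of members, 6.403% of promoter CAC peaks and 8.69% of all start windows. The SP/KLF letters GGGGCGGGG were present in 4.49%, 5.30% and 11.1%, in the same order. The NFY letters CCAATNAG, a CCAAT box with its flank, were present in 2.69% of members, 1.72% of promoter CAC peaks and 4.64% of start windows. Of the liver factors, the FOX letters TGTTTAC were present in 2.01%, 1.36% and 1.64%, and the HNF1 letters GTTAATNAT in 0.441%, 0.208% and 0.366%. The C/EBP letters TTGCNCAA were present in 1.24%, 1.28% and 1.43%, and the HNF4 letters CAAAGTCCA in 0.241%, 0.200% and 0.284%. The E-box CACGTG was present in 4.53%, 4.30% and 5.23%. Within sequence classes the order varied. In CpG-rich sequence the SP/KLF letters were in 10.3% of members and 6.98% of promoter CAC peaks, and the ETS letters in 6.13% and 8.52%. In CpG-poor sequence the SP/KLF letters were in 0.611% and 1.13%, and the ETS letters in 1.48% and 1.54%. A match is a description of the letters in these windows and no evidence of binding.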

How the data were processed

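The deposited files were 2 peak lists in MACS2 narrowPeak form, one for CTCF and one for Rad21, which the authors called with MACS2 on uniquely mapped reads of libraries aligned to mm9 with Bowtie2 and pooled per antibody. Of the deposited columns, the fold enrichment (a ratio of ChIP over background at the summit), the −log10 q and the summit offset were used, and the deposited integer score and −log10 p were not. No column of single libraries was given. Overlap of at least 1 bp with a Rad21 peak made a CTCF peak CAC. All peaks of both lists lay within the chromosome lengths of the mm9 reference whose sequence and GENCODE annotation were used.

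A motif matrix of 20 bp was learned within 50 bp of the summits of the 1000 strongest CTCF peaks of odd-numbered autosomes and applied to even-numbered ones, and the reverse, so that no peak was scored with a matrix learned from its own chromosome. A motif was called within 100 bp of a summit at the score that 1% of windows 1000 bp away reached, 13.3 or 14.2 bits for the 2 matrices. Shares have Wilson intervals, differences Newcombe intervals and medians order-statistic intervals, all at 95%, with no p-values. A count of 0 allows 3 of the total. Overlaps were counted again with bedtools 2.31.1, and the steps were tested on simulated data. Scripts used Python 3.11.15, numpy 2.4.6, pandas 2.3.3, scipy 1.17.1, pysam 0.24.0, samtools 1.23.1 and matplotlib 3.10.9.

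Members, gene lists and the naming rule were chosen with earlier results of these data known. The rule named the 15 strongest members with a protein-coding transcript start within 1 kb, the 6 of highest motif score, the 5 strongest without a motif and in CpG-poor sequence, all at liver genes, those at the limits, genes with 3 or more, and the 3 strongest of each family. The CpG-rich set, SNORA17 and V genes were added after values were seen. Some items that the rule names are not reported here. Alternatives changed the thresholds of both lists, the overlap, the distance, the annotation and the motif call.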

Additional observations from a re-analysis of the deposited data

How the results depend on the processing

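No paired analysis was possible because each list was called on pooled libraries, for the same reason that no library could be left out. The difference in motif share from distal Lone CTCF peaks kept its sign and an interval without 0 under all 9 alternatives tried, but in CpG-rich sequence its interval held 0 (−1.41 points, −17.0 to 4.27). The difference from promoter CAC peaks did not. With CTCF peaks of a −log10 q of at least 10 there were 1111 members at 3.82% of genes, with a motif share of 28.7%, a difference of 7.73 points and a CpG-rich share of 23.9%. With CTCF fold enrichments of at least 5 there were 448, at 1.38% of genes, with a motif share of 38.4% and a difference of 11.3 points. With only Rad21 peaks of a −log10 q of at least 10 there were 5358, at 18.5% of genes, with a motif share of 13.1%, a difference of −6.87 points and a CpG-rich share of 30.1%. With Rad21 covering 50% of the peak the gene share was 13.8%, the motif share 15.3%, the difference −3.02 points and the CpG-rich share 28.5%. With no Rad21 peak within 1 kb there were 1478, at 4.26% of genes, with a motif share of 24.5%, a difference of 7.04 points and a divergent share of 9.66%. Within 500 bp of a start the gene share was 5.75%, the motif share 14.4% and the CpG-rich share 26.7%. With protein-coding starts only the motif share was 12.1%, the difference −1.62 points and the CpG-rich share 26.7%. A motif at 5% background was held by 37.8%, and one within 50 bp gave a difference of −1.40 points. For the comparisons by strength, whose alternatives were chosen after seeing the data, the sign was kept in the 4 bands under a fold enrichment of 10. The interval gained 0 in 1 case, under a fold enrichment of 3 with a −log10 q of at least 10 (9.13 points, −0.845 to 21.7). At 10 and over the difference was −11.8 with strong Rad21 peaks only, −13.0 at 50% cover, −0.580 within 500 bp, −10.6 with protein-coding starts and −0.436 with motifs within 50 bp. The cause of these shifts was not tested.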
